A study of Homo sapiens with 8 samples.

Results

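The 9 genes described here were ID1, ID2, ID3 and ID4, the receptors TGFBR1, TGFBR2 and BMPR2, and the inhibitory SMADs SMAD6 and SMAD7. They were measured by every probe set whose platform annotation gave 1 gene symbol equal to one of these names, which was 26 of 49395 probe sets and 9 of 18132 named genes. The set was chosen in part on the values of ID2, ID3 and TGFBR2, which were higher after USF1 knockdown, so every value of the 9 genes in that comparison is given as a description, with no test. RNA of H1299 cells was measured on 8 one-colour Affymetrix PrimeView arrays. H1299 is a human lung cancer line of the non-small cell kind. All cells were transfected: 3 arrays held USF1 knockdown cells (shRNA against USF1, a transcription factor that binds E-boxes) and 3 held the controls for USF1 knockdown, while 1 array held UGT1A3 knockdown cells (shRNA against UGT1A3, an enzyme that attaches glucuronic acid to small molecules) and 1 its control. The labels name neither the control construct nor the hairpin sequences nor the time after transfection, and nothing in them ties the replicates to separate cultures. The p-values below therefore measure the spread between these arrays, which may be technical.

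ID proteins are helix-loop-helix proteins without a DNA-binding basic region. They pair with basic helix-loop-helix (bHLH) factors such as the E proteins and keep them off E-boxes. BMP and TGF-beta ligands bind pairs of type II receptors (BMPR2, TGFBR2) and type I receptors (TGFBR1), which phosphorylate receptor SMADs. The ID genes are well known targets of BMP signalling through SMADs, and SMAD6 and SMAD7 are themselves induced by the pathway and act back on its receptors as inhibitors.

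USF1 is known for binding the E-box CACGTG, so the stretch of 250 bases before the RefSeq start of each gene (GRCh38.p14) was searched for it. The 4 ID genes are shown because 3 of them were higher in the USF1 knockdown arrays described below, while the groups of ID4 overlapped. Capitals mark matches on either strand to the general E-box CANNTG, which includes the USF1 motif as a special case. They also mark the CCAAT box and the letters TATAA, each likewise on either strand.
ID1, chr20:31605039-31605288, plus strand: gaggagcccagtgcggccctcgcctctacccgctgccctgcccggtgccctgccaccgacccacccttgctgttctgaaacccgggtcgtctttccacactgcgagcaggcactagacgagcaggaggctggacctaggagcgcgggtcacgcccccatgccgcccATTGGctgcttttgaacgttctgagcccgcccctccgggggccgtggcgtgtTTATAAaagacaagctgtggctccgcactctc
ID2, chr2:8681806-8682055, plus strand: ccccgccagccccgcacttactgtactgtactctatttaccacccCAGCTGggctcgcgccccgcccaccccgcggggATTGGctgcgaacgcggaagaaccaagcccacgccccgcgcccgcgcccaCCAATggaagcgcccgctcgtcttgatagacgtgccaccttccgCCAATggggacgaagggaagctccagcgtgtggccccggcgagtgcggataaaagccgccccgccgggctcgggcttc
ID3, chr1:23559502-23559751, minus strand: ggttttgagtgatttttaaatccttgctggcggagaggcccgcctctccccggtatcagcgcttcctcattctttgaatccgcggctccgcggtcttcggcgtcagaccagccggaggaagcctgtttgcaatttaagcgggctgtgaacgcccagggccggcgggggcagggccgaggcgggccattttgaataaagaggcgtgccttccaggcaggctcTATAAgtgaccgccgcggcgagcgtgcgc
ID4, chr6:19837120-19837369, plus strand: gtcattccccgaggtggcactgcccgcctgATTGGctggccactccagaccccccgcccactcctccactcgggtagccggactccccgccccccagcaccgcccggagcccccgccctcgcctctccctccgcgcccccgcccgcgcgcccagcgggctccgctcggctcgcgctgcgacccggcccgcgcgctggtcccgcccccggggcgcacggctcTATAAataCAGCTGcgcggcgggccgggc
No match to CACGTG lay in any of the 19 windows of the 9 genes, whereas 6.34% of all 35116 promoter windows of this length held one. This says only that these letters were not in these windows. The general E-box CANNTG was found in ID2, 205 to 200 bases before the start, and in ID4, 21 to 16 bases before it, both as CAGCTG, and in 61.82% of all windows. In all, 11 of the 19 windows, from 6 of the 9 genes, had a CANNTG match. CCAAT was present in the windows of ID1 (1 match), ID2 (3 matches) and ID4 (1 match) and not in that of ID3, against 32.01% of all windows. TATAA was present in ID1, ID3 and ID4 at 25 to 32 bases before the start, where in ID1 the 2 strands' matches overlap, and in 18.93% of all windows. GGCGCC, a motif of BMP-responsive elements that SMADs bind, was in 1 window each of TGFBR1 and BMPR2, in none of the ID windows and in 16.38% of all windows. CCAAT and TATAA were added to the search after the 4 windows had been read, and the matches are descriptions of sequence, not binding sites.

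The deposited values are log2 intensities. A probe set was called dim when its mean over the arrays of its set lay under the 40th percentile of all probe sets, which was log2 5.63 for the USF1 set and 4.76 for the UGT1A3 set. The array medians were 6.53 to 6.55 in the USF1 set, 5.63 on the UGT1A3 knockdown array and 5.59 on its control, so each knockdown was set only against its own control. USF1 itself read 6.06, 5.88 and 6.13 in USF1 knockdown arrays, against 6.31, 6.55 and 6.42 in the controls. It fell by 0.40 (SE 0.082, limma adjusted p = 0.00818), which left 75.6% of the control intensity. This rests on 1 probe set whose group means lay under the array medians, so the share of USF1 transcript left is uncertain. The 9 probe sets that detect UGT1A3 are shared with other UGT1A genes and were dim in both sets, so the UGT1A3 knockdown could not be checked on its target. The keratin KRT18 and vimentin, which this mesenchymal-type carcinoma line carries, averaged 12.85 and 14.57 in USF1 knockdown arrays and 12.81 and 14.56 in their controls. NKX2-1, a lung lineage factor, averaged 6.42 in USF1 knockdown arrays and 6.40 in controls. The other 2 of 5 bright markers rose. KRT8, the keratin partner of KRT18, averaged 9.32 in USF1 knockdown arrays and 9.07 in controls and rose by 0.25 (SE 0.036, limma adjusted p = 0.00197), with 0.23 to 0.37 over its 8 bright probe sets. N-cadherin (CDH2) read 10.19, 10.20 and 10.19 in USF1 knockdown arrays, against 9.89, 9.90 and 9.94 in controls, and rose by 0.28 (SE 0.028, limma adjusted p = 4.77e-04). Their part in the results below was not tested. KRT19, EPCAM and CDH1 were dim. Of 19 markers of fibroblasts, endothelium and leukocytes with a named probe set 4 were above the dim limit, and none of these 4 passed the limma test, with 0 at an unadjusted p under 0.05.

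ID1, ID2 and ID3 were each higher in all 3 USF1 knockdown arrays than in any control, at every one of their 8 probe sets. ID2 showed the widest separation of the 9 genes. Its brighter probe set read 8.55, 8.51 and 8.45 in USF1 knockdown arrays, against 7.32, 7.37 and 7.17 in controls. The mean was 8.50 ± 0.050 in knockdown and 7.29 ± 0.10 in control arrays (SD, n = 3 each), a difference of 1.22 (SE 0.066) or 233% of the control intensity. The other ID2 probe set gave 7.997, 8.03 and 7.96 in knockdown arrays and 6.93, 6.97 and 6.92 in controls, a difference of 1.06 (SE 0.024). Among 11448 genes above the dim limit, each represented by its brightest probe set, ID2 ranked 3 from the highest difference, which describes how it came to be chosen.

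ID3 had 3 probe sets that agreed closely in size. The brightest read 11.65, 11.69 and 11.61 in USF1 knockdown arrays, against 10.98, 10.96 and 10.92 in controls. The knockdown mean was 11.65 ± 0.037 and the control mean 10.95 ± 0.029 (SD, n = 3 each), which is 162% of the control intensity. The differences at the 3 probe sets were 0.70, 0.71 and 0.71 (SE 0.027, 0.040 and 0.028). ID3 ranked 30 from the highest difference.

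ID1 read 12.59, 12.66 and 12.60 at its brightest probe set in USF1 knockdown arrays and 12.05, 12.15 and 12.12 in controls. The means were 12.61 ± 0.037 in knockdown and 12.11 ± 0.051 in control arrays (SD, n = 3 each), a difference of 0.50 (SE 0.036). The other 2 ID1 probe sets gave 0.61 each (SE 0.036 and 0.029), with knockdown means of 12.45 and 11.71 and control means of 11.84 and 11.09. ID1 ranked 111 from the highest difference.

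ID4 stood apart from its relatives by its low signal. Its brightest probe set read 5.84, 5.83 and 5.68 in USF1 knockdown arrays and 5.55, 5.71 and 5.92 in controls, all close to the dim limit of 5.63. The 2 groups overlapped and differed by 0.058 (SE 0.12). The second probe set above the limit gave a difference of the other sign, -0.065 (SE 0.12), and the remaining 2 probe sets were dim with differences of -0.019 and -0.12.

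**Figure D1:**
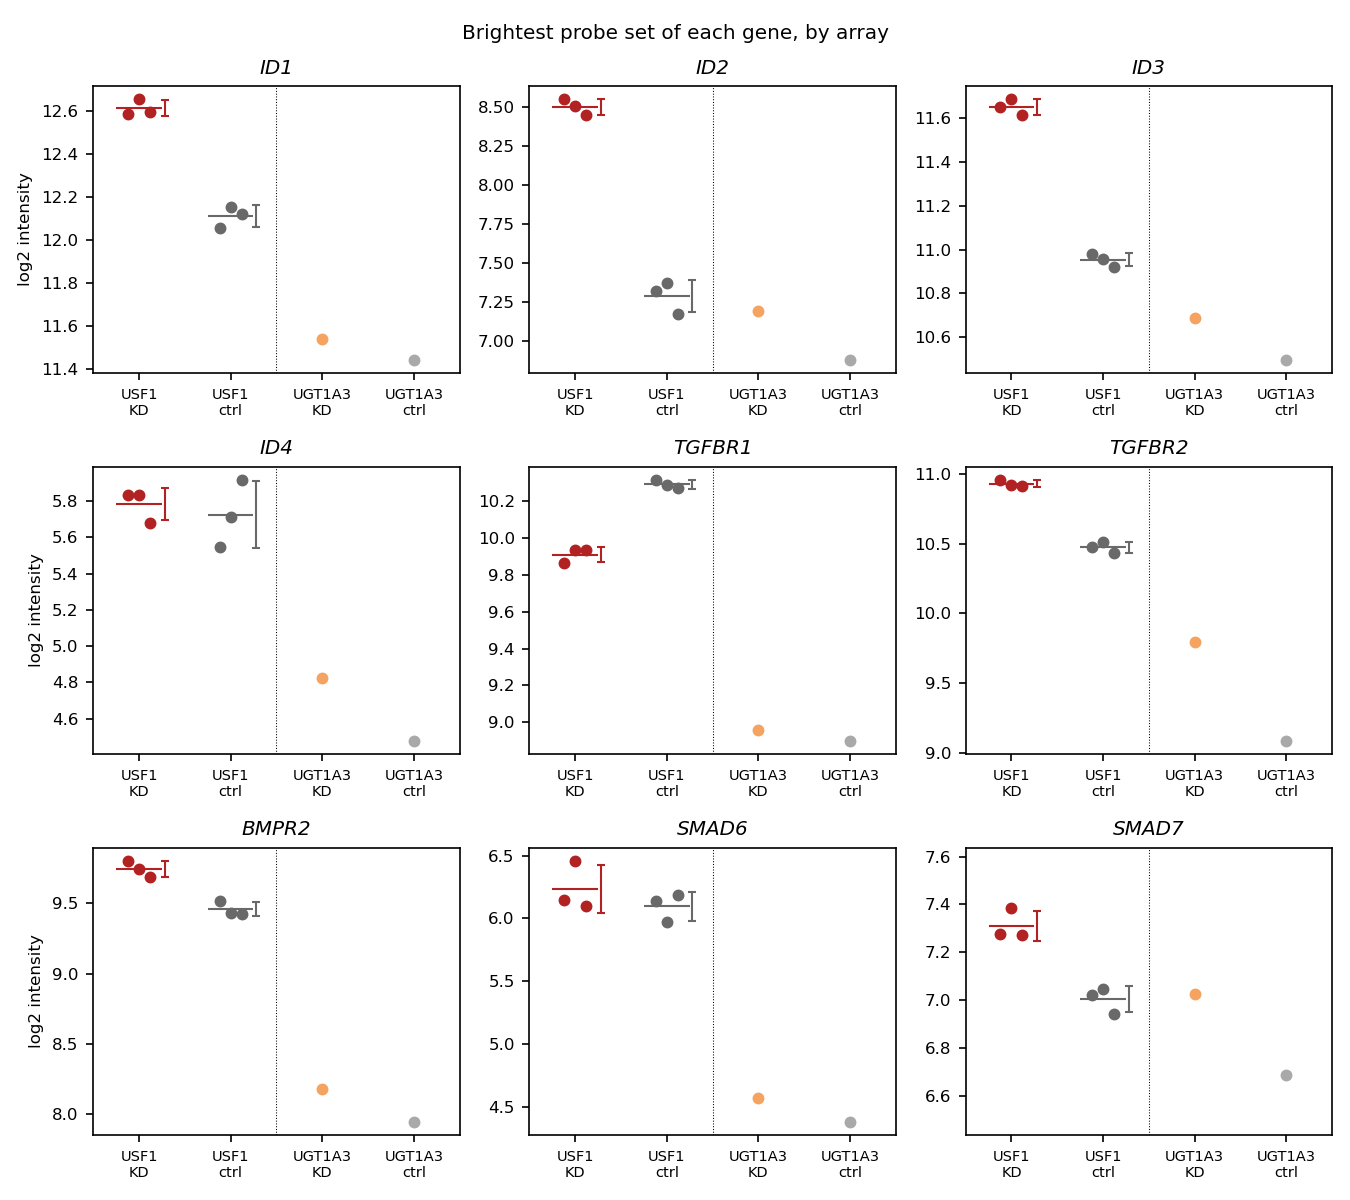
Log2 intensity of each of the 9 genes on every array, at the probe set that was brightest over the USF1 arrays; each panel has its own vertical axis, horizontal lines are group means and bars are SD (n = 3). ID1, ID2, ID3, TGFBR2, BMPR2 and SMAD7 were higher and TGFBR1 lower in all 3 USF1 knockdown arrays than in the controls, ID4 and SMAD6 overlapped, and the UGT1A3 arrays (1 each, right of the dotted line) may be compared only with each other.

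The 2 receptors of the TGF-beta pair lay on opposite sides of their controls. TGFBR2, the type II receptor that binds TGF-beta, read 10.95, 10.92 and 10.91 at its brighter probe set in USF1 knockdown arrays, against 10.48, 10.51 and 10.43 in controls. The means were 10.93 ± 0.023 in knockdown and 10.47 ± 0.040 in control arrays (SD, n = 3 each), a difference of 0.46 (SE 0.027) or 137% of control. The other TGFBR2 probe set gave a smaller difference of 0.31 (SE 0.065), with 8.24, 8.04 and 8.09 in knockdown and 7.79, 7.79 and 7.87 in control arrays. At both probe sets the groups did not overlap.

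TGFBR1, the type I receptor that TGFBR2 phosphorylates, was the only one of the 9 genes that was lower in all 3 USF1 knockdown arrays than in every control at its brightest probe set. It read 9.86, 9.93 and 9.93 in USF1 knockdown arrays, against 10.31, 10.28 and 10.27 in controls. The means were 9.91 ± 0.040 in knockdown and 10.29 ± 0.023 in control arrays (SD, n = 3 each), a difference of -0.38 (SE 0.027), which left 76.9% of the control intensity. The other 2 TGFBR1 probe sets were dim, with differences of -0.24 (SE 0.12) and -0.21 (SE 0.15) and overlapping groups, so the size rests on 1 probe set. TGFBR1 ranked 392 from the lowest difference among the 11448 genes.

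BMPR2, the type II receptor for BMPs, was higher by a smaller amount at all 3 of its probe sets. The brightest read 9.80, 9.75 and 9.69 in USF1 knockdown arrays and 9.52, 9.43 and 9.43 in controls, with means of 9.75 ± 0.056 in knockdown and 9.46 ± 0.050 in control arrays (SD, n = 3 each). The differences were 0.29, 0.24 and 0.26 (SE 0.043, 0.055 and 0.054), which is 118% to 122% of control, and the groups did not overlap at any of them.

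SMAD7, which recruits ubiquitin ligases to the TGFBR1 receptor, read 7.28, 7.38 and 7.27 in USF1 knockdown arrays, against 7.02, 7.05 and 6.94 in controls, at its brightest probe set. The difference was 0.31 (SE 0.048) between means of 7.31 ± 0.063 in knockdown and 7.004 ± 0.054 in control arrays (SD, n = 3 each). The other 2 SMAD7 probe sets lay just under the dim limit, at control means of 5.47 and 5.19, and gave differences of 0.034 (SE 0.049) and 0.018 (SE 0.038) with overlapping groups, so the probe sets of SMAD7 disagree in size. SMAD6, which acts mainly on BMP receptors, read 6.15, 6.46 and 6.10 in USF1 knockdown arrays and 6.14, 5.97 and 6.19 in controls. These groups overlapped, with a difference of 0.14 (SE 0.13), and the 2 dim SMAD6 probe sets gave 0.11 and 0.067.

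Of the 18 member probe sets above the dim limit 14 were higher and 1 was lower in all 3 knockdown arrays, against 51.2% of all bright probe sets whose groups did not overlap and 27.3% that were higher in this way, and of the 8 dim ones none was free of overlap. Since this contrast chose the set, nothing is read from that count. The probe sets that overlapped belonged to ID4 and SMAD6 or were dim.

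**Figure D2:**
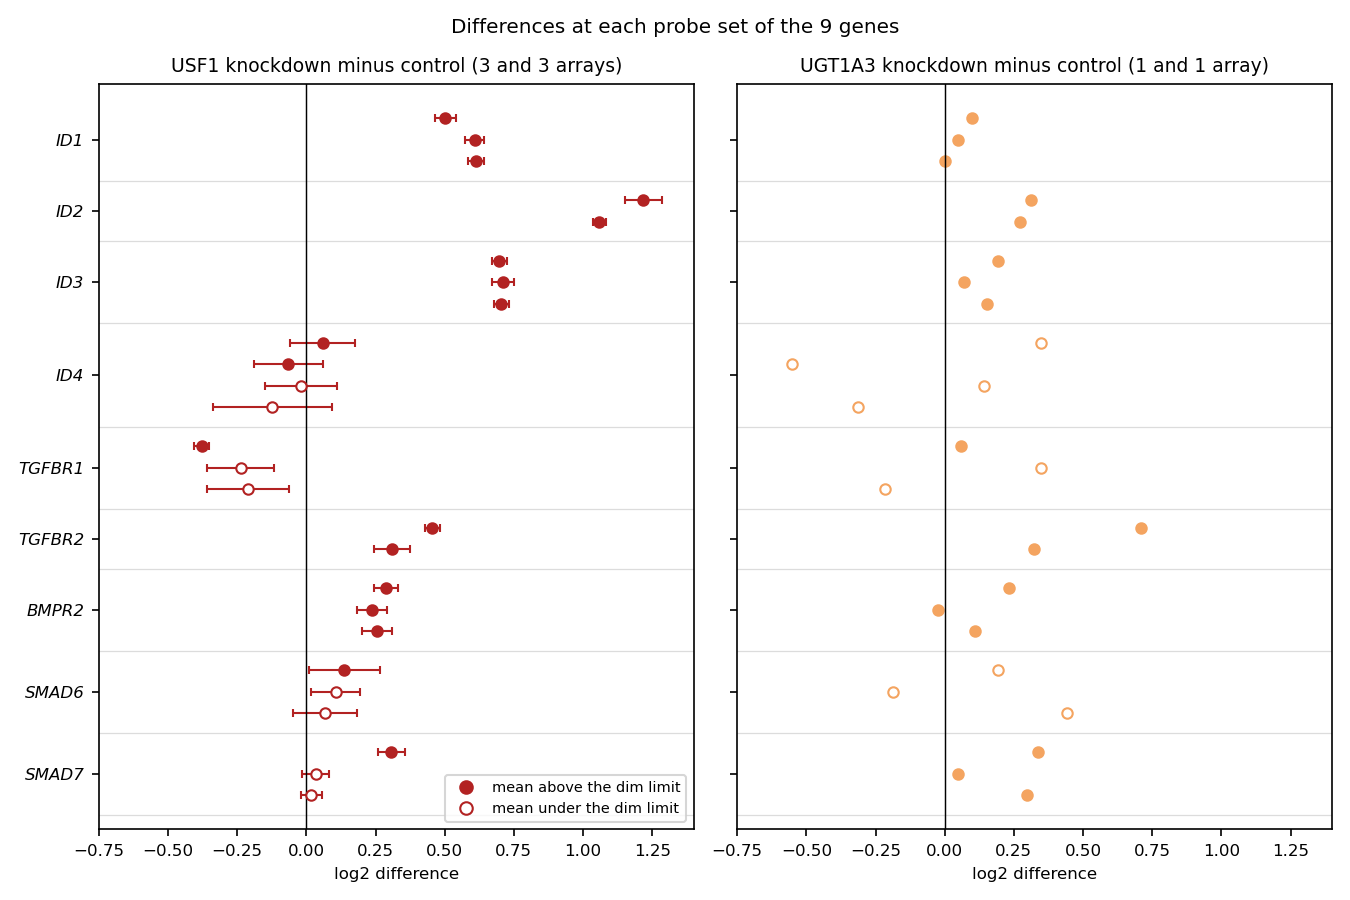
Log2 difference, knockdown minus control, at each of the 26 probe sets, ordered by gene and from bright to dim within a gene; the left panel shows the USF1 comparison with SE bars (n = 3 each) and the right panel the UGT1A3 pair with 1 array each and no error. ID2 has the largest differences on the left (1.22 and 1.06) and TGFBR2 the largest filled point on the right (0.71); open points are under the dim limit of their set.

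The stated reason for choosing the 9 genes does not name the UGT1A3 pair, but earlier results of these data were known. With 1 array per group the pair has no replicate check and no test. TGFBR2 differed most: its brighter probe set read 9.80 on the UGT1A3 knockdown array and 9.09 on the control, a difference of 0.71 or 163% of control, and only 0.869% of 11620 genes had a higher difference. Its other probe set read 7.80 on the knockdown and 7.48 on the control array, a difference of 0.32. TGFBR2 was the 1 gene of the 7 above the dim limit that differed by at least 1.5-fold, against 3.56% of all genes past that fold in either direction.

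The ID genes differed less in the UGT1A3 pair than TGFBR2 did. ID2 read 7.19 and 6.15 on the UGT1A3 knockdown array and 6.88 and 5.87 on the control at its 2 probe sets, which gives 0.31 and 0.27, and 11.8% of genes had a higher difference than the first. ID3 gave 0.19, 0.069 and 0.15 at its 3 probe sets, and ID1 0.10, 0.048 and 0.002. SMAD7 read 7.02 on the knockdown and 6.69 on the control array, a difference of 0.34, and its other probe sets gave 0.046 and 0.30. BMPR2 gave 0.23, -0.026 and 0.11, so its probe sets do not share a sign. TGFBR1, lower after USF1 knockdown, read 8.96 on the UGT1A3 knockdown array and 8.90 on its control, a difference of 0.059. ID4 and SMAD6 were dim in this pair at every probe set. Of 17 member probe sets above the dim limit 16 were higher on the knockdown array, against 51.5% of all bright probe sets, and probe sets of 1 gene are not independent of each other. Of these 16, 1 for ID1 was higher by only 0.002, and the knockdown array also had the higher median, 5.63 against 5.59.

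Across 7 arrays (the 6 USF1 arrays and the UGT1A3 knockdown array, each as its deviation from the control mean of its set), the gene nearest to ID2 among 11130 was S100A4, a calcium-binding protein, at a root mean square distance of 0.13 log2 units. S100A4 differed by 1.28 after USF1 knockdown and by 0.31 in the UGT1A3 pair. The next were RECK, a membrane-anchored inhibitor of metalloproteinases (0.97 and 0.55, distance 0.20), and APH1B, a gamma-secretase subunit (0.95 and 0.58, distance 0.21). Nearest to ID3 were the myosin motor MYO5B (0.73 and 0.19, distance 0.055), the collagen chaperone SERPINH1 (0.66 and 0.32, distance 0.060) and TNRC6A, a protein of microRNA silencing (0.65 and 0.22, distance 0.062). The 6 USF1 arrays among these 7 are the ones whose values chose ID2 and ID3. A near gene is therefore one with a difference of similar size there, and no shared regulation is read from it.

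The rest of the pathway did not move in one direction after USF1 knockdown. Of 140 other genes listed by role 134 had a named probe set and 91 were above the dim limit. By limma with Benjamini-Hochberg adjustment over all 11448 genes, 23 of the 91 rose, 23 fell and 45 did not pass, so 50.5% passed, against 40.7% of all genes (22% upward and 18.7% downward). The median difference over the 91 was 0.003, and it was 0.011 over all genes tested. Without USF1 control 3 the number that rose was 15, and over all arrays left out in turn it ran from 15 to 23.

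Of 9 TGF-beta and activin ligands and latency proteins 4 rose and none fell by the limma test, with 5 higher and 1 lower at an unadjusted p under 0.05. Without knockdown 1 the number that rose was 2. Some latent TGF-beta binding proteins hold TGF-beta in the matrix. Of the 4 genes of this family 3 rose by the limma test, against 22% of all genes that rose. LTBP1 read 7.38, 7.33 and 7.17 in USF1 knockdown arrays and 6.91, 6.88 and 7.04 in controls, and rose by 0.35 (SE 0.066, limma adjusted p = 0.0057), although its 5 bright probe sets ranged from 0.04 to 0.35. LTBP3 rose by 0.24 (limma adjusted p = 0.0141, 9.08e-04 to 0.0527 over the alternatives) and LTBP2 by 0.14 (limma adjusted p = 0.0178, 0.00131 to 0.0569 over the alternatives). The adjusted p of LTBP3 was 0.0527 without control 1, 0.0518 without control 3 and 0.0518 without knockdown 1, and that of LTBP2 was 0.0569 without knockdown 1. The fourth, LTBP4, differed by 0.13 and did not pass (limma adjusted p = 0.0576, 0.0148 to 0.165 over the alternatives). The ligand GDF11 rose by 0.29 (SE 0.056, limma adjusted p = 0.00681), with 0.09 to 0.29 over its 3 bright probe sets. Of 6 BMP and GDF ligands BMP6 alone passed, as it also did without adjustment, and without knockdown 3 the number that fell was 2. BMP6 read 7.46, 7.17 and 7.16 in USF1 knockdown arrays and 7.86, 7.86 and 7.82 in controls, and fell by 0.59 (SE 0.079, limma adjusted p = 0.00158).

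Among 11 other receptors and co-receptors 3 rose and 2 fell. TGFBR3, the co-receptor betaglycan that presents TGF-beta to TGFBR2, read 10.70, 10.67 and 10.64 in USF1 knockdown arrays, against 10.15, 10.13 and 10.04 in controls. It rose by 0.56 (SE 0.038, limma adjusted p = 1.34e-04), with bright probe sets from 0.20 to 0.56. RGMB, a BMP co-receptor, read 8.78, 8.77 and 8.78 in knockdown and 9.30, 9.23 and 9.29 in control arrays, and fell by 0.50 (SE 0.030, limma adjusted p = 8.62e-05). The activin type I receptor ACVR1B fell by 0.26 (limma adjusted p = 0.00199), while its 4 bright probe sets ran from -0.27 to 0.05. ACVR1C rose by 0.18 (limma adjusted p = 0.0154, 0.0101 to 0.0911 over the alternatives, the highest with a robust prior).

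Of the receptor SMADs and their common partner SMAD4, 5 were above the dim limit, of which 1 rose and 1 fell. SMAD2 fell by 0.22 (SE 0.034, limma adjusted p = 0.0026), and the differences at its 7 bright probe sets ran from -1.01 to -0.20. SMAD3, which shares the TGF-beta branch with SMAD2, rose by 0.12 (SE 0.034, limma adjusted p = 0.0264, 3.4e-04 to 0.0886 over the alternatives), with differences of 0.12 to 0.44 over 5 probe sets. The adjusted p of SMAD3 was 0.0747 without control 1, 0.0886 without control 3, 0.0674 without knockdown 2 and 0.0643 without knockdown 3. Of 7 extracellular antagonists and binding proteins FSTL1 rose by 0.38 (SE 0.030, limma adjusted p = 2.18e-04), and the BMP antagonist CHRDL1 fell by 0.22 (limma adjusted p = 0.00419, 0.00424 to 0.0523 over the alternatives, the highest with a robust prior). Of 19 intracellular regulators 4 rose and 7 fell, with 2 rises where all probe sets were averaged. ZFYVE9 (SARA), which brings SMAD2 and SMAD3 to the receptor, rose by 0.59 (SE 0.063, limma adjusted p = 6.4e-04), with 0.24 at its other bright probe set. The related endosomal protein ZFYVE16 fell by 0.39, the ubiquitin ligase NEDD4L by 0.29 and LEMD3, an inner nuclear membrane protein that binds receptor SMADs, by 0.30 (limma adjusted p = 3.46e-04, 3.8e-04 and 7.96e-04). Over its 3 bright probe sets LEMD3 ran from -0.30 to -0.05.

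TGF-beta target genes went both ways, with 6 of 16 rising and 5 falling and a median of -0.013. Leaving out any 1 array gave 3 to 4 falls, with 3 without control 1, without control 3 or without knockdown 1. The falls also numbered 3 with the replicate block or with no dim limit. TGFBI, a matrix protein named for its induction by TGF-beta, read 7.57, 7.57 and 7.61 in USF1 knockdown arrays and 6.91, 7.07 and 6.92 in controls. It rose by 0.62 (SE 0.047, limma adjusted p = 1.8e-04). The tropomyosin TPM1 rose by 0.41 (SE 0.028, limma adjusted p = 1.38e-04), though its 9 bright probe sets ran from -0.15 to 0.41. The cell cycle inhibitor CDKN2B read 9.37, 9.47 and 9.34 in knockdown and 9.95, 9.90 and 9.92 in control arrays, and fell by 0.53 (SE 0.041, limma adjusted p = 2.07e-04). The transcription factor KLF10 fell by 0.44 (SE 0.041, limma adjusted p = 3.9e-04). Of 10 BMP targets, a list without the ID and inhibitory SMAD genes, 3 rose and 3 fell. The number that rose was 1 without control 3, and it was 0 both with the mean of all probe sets and with a dim limit at the 60th percentile. With the mean of all probe sets 1 fell. ATOH8 rose by 0.44 (SE 0.10, limma adjusted p = 0.0129), whereas HEY1 fell by 0.30, RUNX2 by 0.32 and DLX2 by 0.24 (limma adjusted p = 7.44e-04, 0.00809 and 0.00606). Averaged over its probe sets, DLX2 gave -0.032 (limma adjusted p = 0.453, and 2.17e-04 to 0.453 over the alternatives).

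The listed bHLH factors, the E proteins among them, were mostly dim, with 8 of 21 above the limit, of which 1 rose and 3 fell. Not all of them are direct partners of ID proteins. TWIST1 read 7.50, 7.47 and 7.44 in USF1 knockdown arrays and 8.28, 8.43 and 8.31 in controls, and fell by 0.87 (SE 0.045, limma adjusted p = 5.51e-05). TWIST2 fell by 0.53 at its brighter probe set (limma adjusted p = 6.01e-04) and gave 0.33 at the other, and with the mean of its probe sets the adjusted p was 0.296 (1.75e-06 to 0.296 over the alternatives). Of the E proteins, TCF12 fell by 0.25 (limma adjusted p = 0.00197), TCF4 rose by 0.21 (limma adjusted p = 0.0171, 2.7e-04 to 0.057 over the alternatives, the highest without control 3) and TCF3 differed by -0.004 without passing. Over 11 bright probe sets each, TCF12 ran from -0.28 to -0.03 and TCF4 from 0.002 to 0.36.

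**Figure D3:**
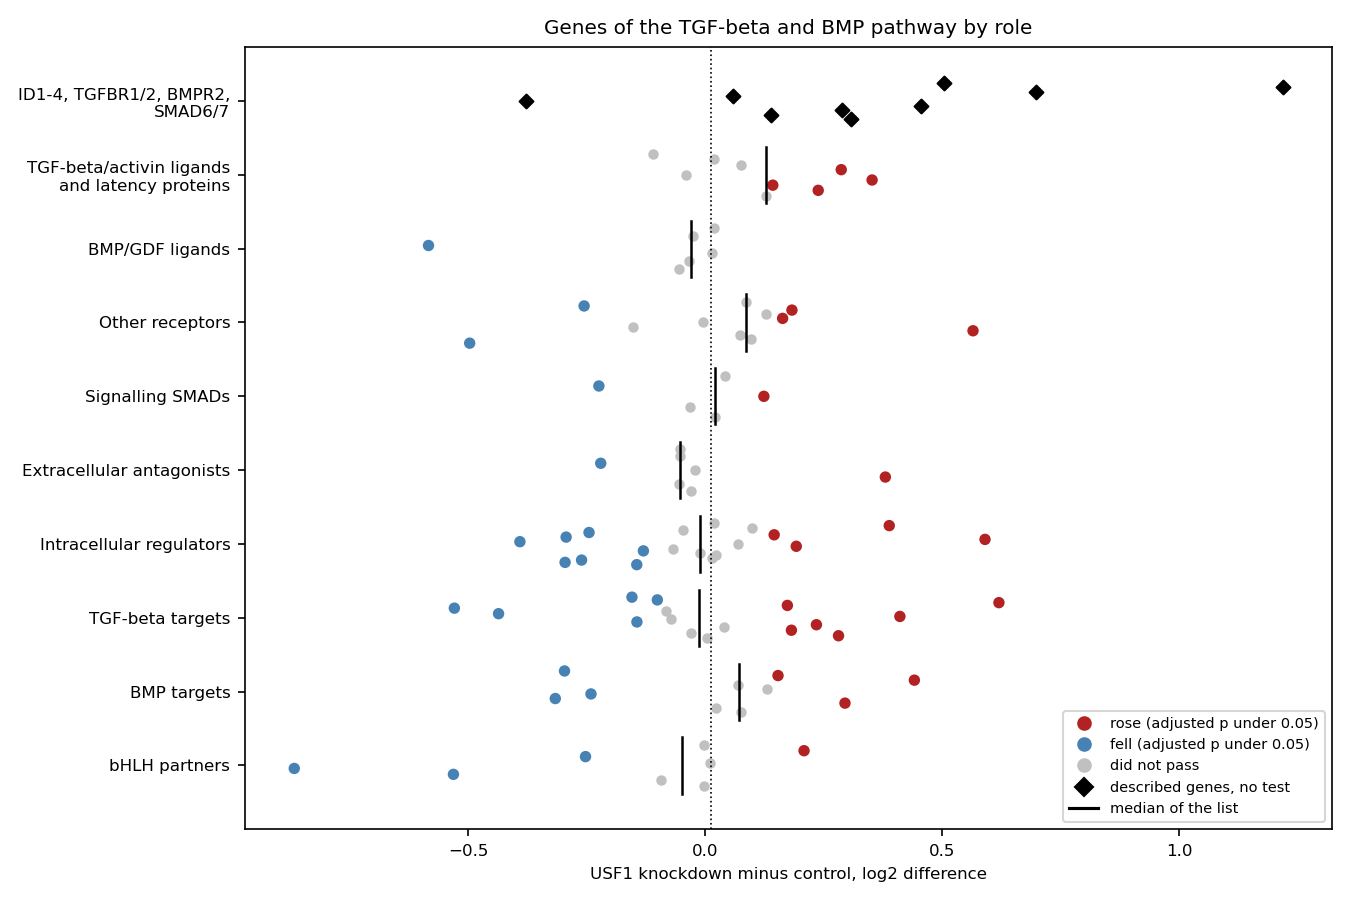
USF1 knockdown minus control, as log2 difference at the brightest probe set (n = 3 each), for the 9 genes (diamonds, no test) and for the genes of each role above the dim limit; red points rose, blue points fell and grey points did not pass a limma adjusted p of 0.05. Short lines are list medians, between -0.054 and 0.128, and the dotted line is the median of all genes tested, 0.011; each role except the TGF-beta ligands and the BMP ligands holds both red and blue points.

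In the UGT1A3 pair 88 of the listed pathway genes were above the dim limit, with a median difference of 0.068 against 0.018 over all genes. The targets TGFBI and CDKN2B were at least 1.5-fold higher and none was as much lower, against 2.15% and 1.41% of all genes. TGFBI read 8.80 on the UGT1A3 knockdown array and 8.21 on the control, a difference of 0.59 beside its rise of 0.62 after USF1 knockdown. CDKN2B read 8.11 on the knockdown and 7.36 on the control array, a difference of 0.75 beside its fall of 0.53 after USF1 knockdown, and the difference between these effects was not tested. LTBP2 and LTBP1 followed just under that fold at 0.58 and 0.57, and SMAD3 differed by 0.42 and SMAD2 by 0.21. The largest differences among other receptors were 0.46 for ACVR1C and 0.31 for ACVR1, and among bHLH factors 0.39 for TCF4 and -0.30 for TCF3. Among BMP targets they were -0.40 for GATA2 and 0.38 for HEY1. BMP6 differed by -0.19 in this pair.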

How the data were processed

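The deposited table held a log2 intensity for each probe set on 8 arrays, and that scale was taken from the range of the numbers. Per the submitters' processing notes, which give no role or version, MAS5 was among the tools. How the arrays were scaled to each other was not given in the sources used here. Of 49395 probe sets 102 controls were left out, and 44988 carried 1 gene symbol. Each gene was its probe set of highest mean, and a gene was left out as dim where that mean lay under the 40th percentile over all probe sets.

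USF1 knockdown was compared with its controls (3 arrays each) by limma 3.58.1 in R 4.3.3 (lmFit, eBayes), two-sided, with Benjamini-Hochberg adjustment over 11448 genes and a threshold of 0.05. In the 9 genes' values SE is from the group SDs, and in the other genes the moderated SE. An exact permutation of 3 against 3 arrays cannot go below 0.1 and was not used. On simulated data for this comparison (11448 genes, 50 changed per fold) the fit called 14, 43, 44 and 50 of 50 at 1.1, 1.25, 1.5 and 2-fold, with 8 false calls among 159. The simulation changed a far smaller share of genes than the 40.7% called in the data and held no technical shift between arrays. Its rates therefore do not carry over to the calls reported here. For the UGT1A3 pair only differences were formed. The number of arrays limits the precision.

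Members and lists were chosen with earlier results of these data known. Named pathway genes are up to 4 per list with the smallest adjusted p, and in the UGT1A3 pair up to 2 with the largest difference, of which some were left out. Other genes named (KRT8, CDH2, LTBP4, TCF3 and those of the closing observations) were chosen after their values were seen. Promoter windows are RefSeq's (GRCh38.p14), and all 9 genes had one. Protein sequences were not used here. Alternatives were quantile normalization, median centring, no dim limit or one at the 60th percentile, 16 intensity units added, the mean of all probe sets, each probe set tested separately, a robust prior with an intensity trend, a replicate block and leaving out each array.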

Additional observations from a re-analysis of the deposited data

How the results depend on the processing

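With the mean of all probe sets per gene the USF1 differences were 0.57 for ID1, -0.28 for TGFBR1, 0.38 for TGFBR2 and 0.12 for SMAD7, and in the UGT1A3 pair 0.14 for ID3, 0.52 for TGFBR2, 0.11 for BMPR2 and 0.23 for SMAD7, since dimmer probe sets enter. Quantile normalization, median centring and 16 units added moved no USF1 difference of the 9 genes by more than 1 SD between replicates. The other dim limits, separate probe sets, the robust prior and the replicate block used the same probe set and values. They could not change a difference where the gene had a value. The UGT1A3 pair has no replicates and so no such spread of its own. Leaving out each USF1 array in turn also moved no USF1 difference of the 9 genes by more than 1 SD. With so few arrays per group this was bound to be so, since omitting 1 array shifts a group mean by less than 1 SD. No stability is read from it, and the ranges over these omissions are given as a description. The ranges were then 1.16 to 1.26 for ID2, 0.68 to 0.72 for ID3, 0.47 to 0.52 for ID1, 0.43 to 0.47 for TGFBR2, -0.39 to -0.36 for TGFBR1, 0.26 to 0.32 for BMPR2 and 0.27 to 0.33 for SMAD7, while ID4 ran from -0.031 to 0.15 and SMAD6 from 0.027 to 0.21. Counted by probe set, 5849 rose and 5181 fell in all, and 53 and 51 in the pathway lists, because more features are tested. Leaving out arrays gave 1942 to 2479 rises and 1670 to 2084 falls in all, and 15 to 23 and 20 to 23 in the lists. The replicate numbers did not pair the arrays (same-number correlations of -0.101, 0.204 and 0.0927), and with the replicate block 2305 genes rose and 1928 fell, with 23 and 21 in the lists. In the UGT1A3 pair the genes at least 1.5-fold higher numbered 126 with the 60th percentile limit, 126 with 16 units added and 155 with the mean of probe sets, against 250. Pathway genes past that fold upward were 1 with median centring, 1 with 16 units added and 1 with the mean of probe sets, and with no dim limit 5, with 1 downward. Of 39 named genes that passed after USF1 knockdown 28 kept their call under every alternative in which they had a value. The 11 others are those given with a range of adjusted p, and the cause was not tested. With each probe set tested separately, a named gene's call was read at its brightest probe set only. Disagreement among probe sets therefore entered these calls only through their mean. ID4 read close to the dim limit and SMAD6 under the array medians, which limits what can be seen of them. SMAD6 averaged 6.24 in USF1 knockdown arrays and 6.10 in controls. HEY1 (5.95 and 6.25) and CHRDL1 (5.92 and 6.15), which passed the limma test, read at similar levels, so the same limit holds for them.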

Other observations

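The genes given here that act back on the pathway were chosen after their values were seen and are already counted among the intracellular regulators above. Their directions after USF1 knockdown are therefore no further evidence. SKIL (SnoN), which represses SMAD targets, read 6.78, 7.06 and 6.79 in USF1 knockdown arrays and 6.45, 6.54 and 6.47 in controls, and rose by 0.39 (SE 0.076, limma adjusted p = 0.00702). PMEPA1, a membrane protein that holds back SMAD2 and SMAD3, fell by 0.26 (SE 0.052, limma adjusted p = 0.00726). Of the SMURF ubiquitin ligases SMURF1 fell by 0.25 (SE 0.046, limma adjusted p = 0.00589) and SMURF2 rose by 0.15 (SE 0.030, limma adjusted p = 0.00823, 2.33e-05 to 0.0792 over the alternatives, the highest with the mean of its probe sets). Over their bright probe sets SMURF1 ran from -0.25 to -0.05 and SMURF2 from 0.02 to 0.15. The ligand TGFB1 differed by -0.11 and did not pass (limma adjusted p = 0.0813, 0.0206 to 0.221 over the alternatives, the lowest with a robust prior).

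The matrix targets of TGF-beta given here were also chosen after their values were seen. They are already counted among the TGF-beta targets above, so their directions add nothing to that count. Fibronectin (FN1) rose by 0.23 (SE 0.064, limma adjusted p = 0.0256, 0.00227 to 0.0785 over the alternatives), and its adjusted p was 0.0611 without control 2, 0.0785 without control 3, 0.0744 without knockdown 1 and 0.0627 without knockdown 2. The matricellular CCN2 fell by 0.15 (SE 0.034, limma adjusted p = 0.011) and CCN1 by 0.10 (SE 0.030, limma adjusted p = 0.0348, 6.78e-04 to 0.106 over the alternatives). For CCN1 leaving out any one array other than knockdown 3 gave an adjusted p of 0.0575 to 0.106.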
